A study of Mus musculus with 31 samples.

Results

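The miR-34 and miR-449 miRNAs are a family that shares one seed, the short stretch near the 5′ end with which a miRNA pairs to its targets. The members described here are mmu-miR-34a-5p, both arms of mmu-miR-34b and mmu-miR-34c, and mmu-miR-449a-5p. They were taken by name, with all their probes, and are 6 of the 650 miRNAs and 12 of the 1857 probes on the array. Lungs of female BALB/c mice, an inbred strain, had been exposed to cigarette smoke or to room air for 4, 6, 8 or 12 weeks, in a study of chronic obstructive pulmonary disease. Total RNA was extracted with TRIzol, labelled with Cy3 at its 3′ end and measured on Agilent mouse miRNA microarrays, 1 sample per array. The 31 arrays fall into 8 groups, smoke and room air at each duration, with 4 arrays per group except 3 in the group of 12 weeks of smoke. Whole lung was used, so more cells of a type and more miRNA per cell cannot be told apart in any value below. The sources used here do not give the age of the mice, the smoke dose or whether the arrays of a group came from separate animals. The p-values therefore cover the array-to-array spread alone, which may be technical.

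miR-34a is transcribed from a gene of its own that is activated by p53, and it represses cell cycle and survival genes, among them Bcl2 and Sirt1. miR-34b and miR-34c come from a common transcript, and in the airway they are, with miR-449a, miRNAs of multiciliated cells, where they act in the differentiation of these cells and repress Ccp110, a protein that restrains centriole and cilium assembly. These roles need not be exclusive to the members named with them, and neither p53 activity nor ciliated cells were measured here.

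The mature sequences show why the members are read as one family in their 5p arms and as another in their 3p arms. They are from RefSeq (GRCm38.p6), which held 5 of the 6 members, and the capitals mark the seed, bases 2 to 8.
mmu-miR-34a-5p: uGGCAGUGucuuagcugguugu
mmu-miR-34b-5p: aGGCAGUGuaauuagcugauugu
mmu-miR-449a-5p: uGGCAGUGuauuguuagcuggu
mmu-miR-34b-3p: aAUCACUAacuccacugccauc
mmu-miR-34c-3p: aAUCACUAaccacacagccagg
The 3 sequences of 5p arms share the seed GGCAGUG, and both 3p arms share AUCACUA. Counted from base 1 at the 5′ end without gaps, miR-34a-5p differs from miR-449a-5p at 7 of 22 positions and from miR-34b-5p at 11 of 22. miR-34b-5p has 23 bases and miR-34a-5p 22, and a shift by 1 base past the seed raises a count without gaps. The 11 therefore does not measure how far these 2 diverge. The 3p arms of miR-34b and miR-34c differ at 5 of 22 positions. In the same RefSeq table the seed of the 5p arms was also found in mmu-miR-449c-5p, and no other miRNA of the table had the seed of the 3p arms.

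The members lie at 3 loci. miR-34a-5p is at chr4:150068473-150068494 on the plus strand, in the span of no other RefSeq gene. miR-34b-5p (chr9:51103610-51103632) and miR-34c-3p (chr9:51103044-51103065) are on the minus strand, in hairpins 451 bases apart, within the spans of Btg4 and Hoatz. miR-449a-5p is at chr13:113037549-113037570 on the plus strand, within the span of Cdc20b, and its hairpin is 1442 bases from that of miR-449c.

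All 6 members were detected on all 31 arrays by both of their probes, and no array was saturated for them. By contrast mmu-miR-449b and mmu-miR-449c-5p, the other miR-449 entries of the array, had 4 probes each and were not well above background on any of the 31 arrays. A level below is the log2 of the signal of the brightest probe of a miRNA, divided by the 75th percentile of its array over the 385 probes detected on every array, so that 0 is that percentile. Probes differ in how well they bind, so the level of a member is compared between samples and never with that of another member. Of the 650 miRNAs, 272 were detected in at least 1 group and were tested with limma, and "changed", "rose" and "fell" below mean a Benjamini-Hochberg adjusted p of 0.05 or less over these 272. The arrays lie on 4 slides, each with every group except that 1 slide lacks the 12 weeks smoke group. Smoke and room air occupy different rows of a slide, so position and exposure cannot be told apart. Each duration occupies a column of its own on every slide, so position and duration cannot be told apart either. The scaling value of an array, its 75th percentile, ranged from 1018 to 3725 signal units.

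miR-34a-5p rose with smoke. Averaged over the durations it was 0.67 ± 0.08 log2 higher (SE; 1.59-fold, 15 smoke and 16 room-air arrays, limma adjusted p 1.77e-07), where 27.6% of the tested miRNAs changed in either direction and the median of all tested miRNAs was at -0.005. It had the 6th largest rise of the 272. After 4 weeks the room-air arrays read -0.26, -0.40, -0.45 and -0.46 and the smoke arrays 0.55, -0.25, -0.03 and 0.44. Smoke arrays 2 and 3 were the lower pair, and the lowest of them lay just above the highest room-air array. After 6 weeks the room-air arrays read -0.25, -0.26, -0.81 and -0.80 and the smoke arrays 0.37, 0.56, 0.31 and 0.44, so that the groups stood far apart, with room-air arrays 3 and 4 the lowest of the series. After 8 weeks the room-air arrays read -0.28, -0.17, -0.32 and -0.25 and the smoke arrays -0.10, 0.35, 0.16 and -0.08, a narrow gap. After 12 weeks the room-air arrays read -0.23, -0.34, -0.19 and -0.29 and the smoke arrays 0.72, 0.70 and 0.28, again apart. Thus at each duration the highest room-air array was below the lowest smoke array, which was so for 23.5%, 15.8%, 4.78% and 16.5% of the tested miRNAs at 4, 6, 8 and 12 weeks. Over the whole series 14 of the 15 smoke arrays lay above all 16 room-air arrays. No share of all tested miRNAs was computed for this count. The same holds for the counts below over the whole series and over slide pairs, unless a share is given.

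Tested at each duration, miR-34a-5p rose at 3 of the 4. The difference was 0.57 ± 0.15 log2 (SE, n = 4 and 4) at 4 weeks (limma adjusted p 0.0082), when 38.2% of the miRNAs changed. At 6 weeks it was 0.95 ± 0.15 (n = 4 and 4; limma adjusted p 9.2e-05), the 6th largest rise, beside 8.09% changed in all. At 8 weeks it was 0.34 ± 0.15 (n = 4 and 4; limma adjusted p 0.165), which did not pass, while 11% of the miRNAs did. At 12 weeks it was 0.83 ± 0.16 (n = 3 and 4; limma adjusted p 9.83e-04), again the 6th largest rise, beside 9.56% changed. A smoke effect differing between the durations was not shown for it (limma moderated F test, adjusted p 0.131). Compared between neighbouring arrays of a slide, miR-34a-5p was higher with smoke in 15 of 15 pairs, and the mean difference per slide was 0.59 to 0.77 log2. The call at 4 weeks depends on the processing: it was lost when the arrays of 4 weeks were fitted alone (0.57 log2, limma adjusted p 0.108), when arrays were scaled by the 75th percentile of all probes (0.47, 0.221), with normexp background correction (0.45, 0.0524) and with no scaling (0.49, 0.616). With no scaling the calls at 6 and 12 weeks were lost too (0.93 log2, limma adjusted p 0.819, and 1.15, 0.285), and the difference at 8 weeks turned to -0.48 log2 (0.283). At 4 weeks the difference grew to 0.89 log2 without smoke arrays 2 and 3.

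**Figure D1:**
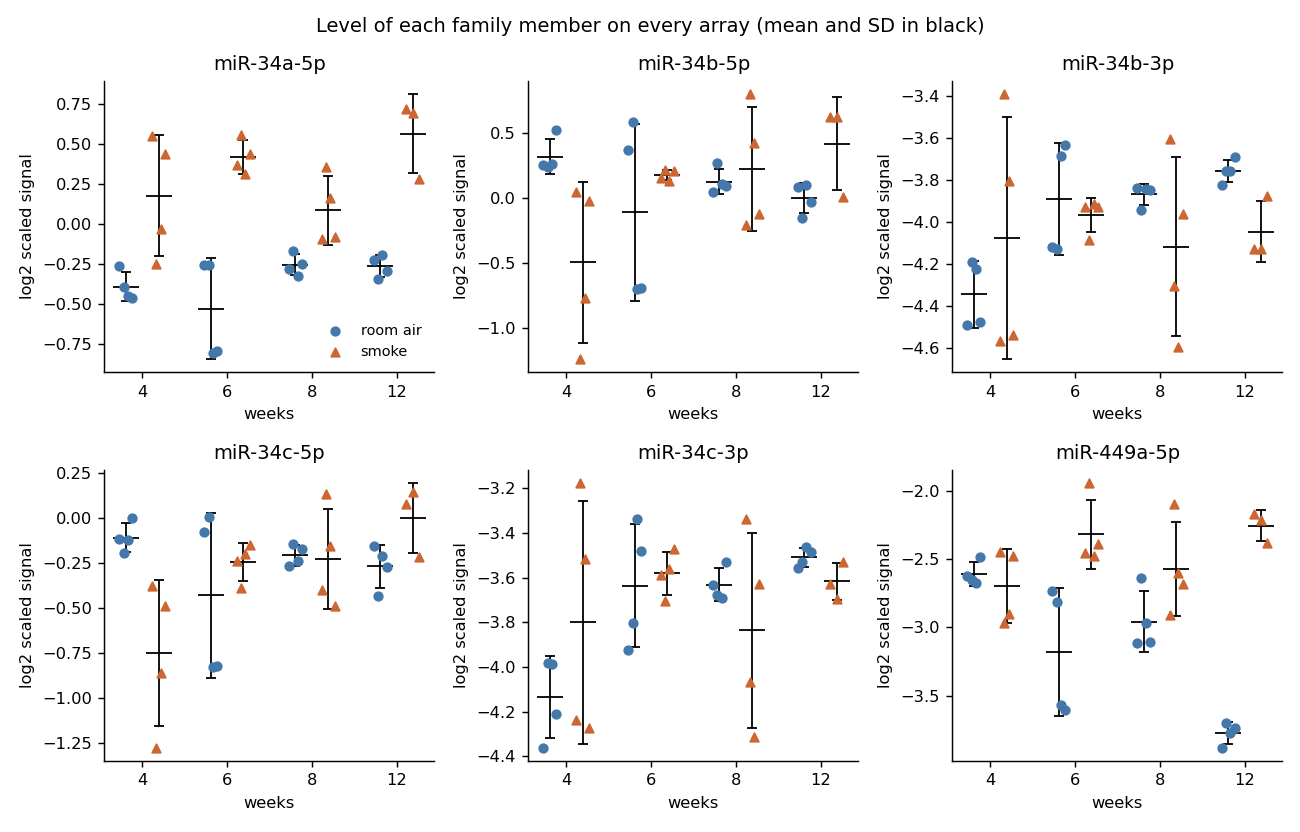
Log2 scaled signal of each member on every array (vertical axis, a scale of its own in each panel) against weeks of exposure, room air as circles and smoke as triangles, with the group mean and SD in black. At this scaling miR-34a-5p is higher on the smoke arrays at every duration (with no scaling the difference at 8 weeks is -0.48 log2), and miR-449a-5p falls to between -3.88 and -3.70 on the room-air arrays of 12 weeks.

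miR-449a-5p rose as much on average, but with another course in time. Its averaged difference was 0.67 ± 0.09 log2 (SE; 1.59-fold, 15 and 16 arrays, limma adjusted p 4.93e-06), the 7th largest rise, and 10 of 15 smoke arrays lay above all 16 room-air arrays. After 4 weeks the room-air arrays read -2.62, -2.66, -2.68 and -2.48 and the smoke arrays -2.44, -2.97, -2.90 and -2.48, and the groups overlapped. The difference was -0.09 ± 0.18 log2 (n = 4 and 4; limma adjusted p 0.735). After 6 weeks the room-air arrays read -2.73, -2.81, -3.57 and -3.60 and the smoke arrays -2.46, -1.94, -2.47 and -2.39, without overlap. It had risen by 0.86 ± 0.18 log2 (1.82-fold, n = 4 and 4; limma adjusted p 0.00202). After 8 weeks the room-air arrays read -3.12, -2.64, -2.97 and -3.11 and the smoke arrays -2.91, -2.09, -2.60 and -2.68. They overlapped, and the difference of 0.39 ± 0.18 log2 (n = 4 and 4; limma adjusted p 0.199) did not pass. After 12 weeks the room-air arrays read -3.88, -3.70, -3.78 and -3.74 and the smoke arrays -2.17, -2.21 and -2.38, the widest gap of any member at any duration. The rise was 1.52 ± 0.20 log2 (2.87-fold, n = 3 and 4; limma adjusted p 3.36e-06), the 3rd largest of the 272 miRNAs.

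The effect of smoke on miR-449a-5p differed between the durations. The moderated F test gave limma adjusted p 0.00641, the lowest p of the 272 miRNAs, of which 6.99% passed, and the differences spanned 1.61 log2 from 4 to 12 weeks. Among the room-air arrays alone the durations differed as well: the group means were -2.61, -3.18, -2.96 and -3.77 at 4, 6, 8 and 12 weeks, a span of 1.16 log2 (limma moderated F test, adjusted p 0.00213, where 6.99% of the miRNAs passed). Among the smoke arrays the means were -2.70, -2.32, -2.57 and -2.25, and a difference between durations was not shown (span 0.44 log2, limma moderated F test, adjusted p 0.335, where 2.94% passed). The wide difference at 12 weeks was thus measured against the room-air group with the lowest level. In each of these comparisons of durations, weeks and slide column cannot be told apart. Within slides miR-449a-5p was higher with smoke in 13 of 15 pairs, with slide means of 0.55 to 0.67 log2, and the exceptions were both at 4 weeks. A normexp background correction took the calls of the smoke effect away: the averaged difference was 0.38 log2 (limma adjusted p 0.198), that at 12 weeks 1.06 log2 (0.0942) and that at 6 weeks 0.64 log2 (0.78), and the F test of durations gave 0.198. The call among room-air durations stayed, at the threshold (span 1.29 log2, limma moderated F test, adjusted p 0.05). Scaled by the 75th percentile of all probes, the F test gave limma adjusted p 0.0502 and the rise at 6 weeks 0.103. With no scaling the averaged rise (0.52 log2, limma adjusted p 0.142) and that at 6 weeks (0.85, 1) did not pass, and the difference at 8 weeks was -0.43 log2 (0.369). The rise at 12 weeks (1.84 log2, limma adjusted p 0.04) and the F test of the smoke effect between durations (0.0267) still passed with no scaling. Fitted on the arrays of 6 weeks alone, the rise at 6 weeks did not pass either (0.86 log2, limma adjusted p 0.0845).

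**Figure D2:**
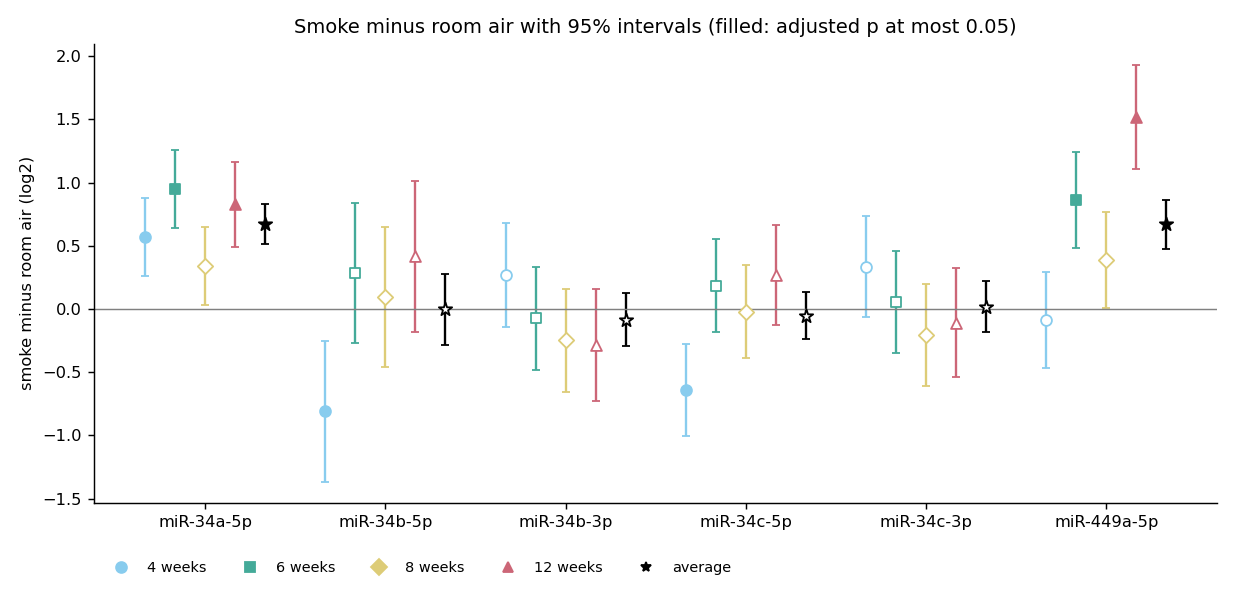
Smoke minus room air for each member (log2, vertical axis) at 4, 6, 8 and 12 weeks and averaged, with 95% intervals from limma, where filled symbols have an adjusted p of 0.05 or less. Only miR-34a-5p and miR-449a-5p have filled averages, 0.67 for both, and miR-34b-5p and miR-34c-5p have filled symbols below 0 at 4 weeks.

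The 4 miRNAs of the miR-34b and miR-34c locus did not pass in the averaged comparison. The difference was -0.004 log2 for miR-34b-5p (95% interval -0.29 to 0.28, limma adjusted p 0.987) and -0.05 for miR-34c-5p (-0.24 to 0.13, limma adjusted p 0.704). For miR-34b-3p it was -0.09 (-0.29 to 0.12, limma adjusted p 0.561) and for miR-34c-3p 0.02 (-0.19 to 0.22, limma adjusted p 0.917). None of these intervals reaches the 0.67 log2 of miR-34a-5p and miR-449a-5p. Without smoke arrays 2 and 3 of 4 weeks, miR-34b-3p passed as a fall (-0.20 log2, limma adjusted p 0.0428).

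Both 5p arms of this locus fell at 4 weeks. The room-air arrays of miR-34b-5p read 0.25, 0.23, 0.26 and 0.52 and the smoke arrays 0.04, -1.23, -0.77 and -0.03, a difference of -0.81 ± 0.27 log2 (SE, n = 4 and 4; limma adjusted p 0.024). miR-34c-5p read -0.12, -0.19, -0.13 and -0.003 on the room-air arrays and -0.38, -1.27, -0.86 and -0.49 on the smoke arrays, a difference of -0.64 ± 0.18 log2 (n = 4 and 4; limma adjusted p 0.0113). For both, every smoke array lay below every room-air array, which was so for 6.25% of the tested miRNAs, and smoke arrays 2 and 3 lay far below the rest. The falls rest on these arrays: without them the differences were -0.31 (limma adjusted p 0.62) and -0.32 log2 (limma adjusted p 0.394), and leaving out smoke array 2 alone left -0.56 (0.152) and -0.47 (0.0765). The call for miR-34b-5p was also lost without smoke array 3 (-0.72 log2, limma adjusted p 0.0768) or without room-air array 4 (-0.74, 0.0772), and both calls were lost when the arrays of 4 weeks were fitted alone (adjusted p 0.136 and 0.0908), scaled by all probes (0.102 and 0.0852) and with no scaling (0.513 for both). That of miR-34b-5p was lost as well with normexp (limma adjusted p 0.0535) and with no detection filter (0.0685).

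The 3p arms did not pass at 4 weeks in the fit of all arrays. miR-34b-3p read -4.49, -4.19, -4.22 and -4.48 on the room-air arrays and -4.57, -3.39, -3.81 and -4.54 on the smoke arrays (difference 0.27 ± 0.20 log2, n = 4 and 4; limma adjusted p 0.274). miR-34c-3p read -4.36, -3.98, -3.99 and -4.21 against -4.24, -3.18, -3.52 and -4.27 (difference 0.34 ± 0.20, limma adjusted p 0.161). With normexp both differences were negative (-0.73 and -0.63 log2, limma adjusted p 0.147 and 0.188), as they were without smoke arrays 2 and 3 (-0.21 and -0.12, 0.59 and 0.839). By contrast miR-34c-3p passed as a rise without smoke array 1 (0.48 log2, limma adjusted p 0.0466) or without smoke array 4 (0.49, 0.0396). Smoke arrays 2 and 3, the lowest for the 5p arms, were thus the highest for the 3p arms. The same array-wise opposition appeared without smoke, in the room-air group of 6 weeks. There miR-34b-5p read 0.37, 0.58, -0.70 and -0.69 and miR-34b-3p -4.12, -4.13, -3.68 and -3.63, so that arrays 3 and 4 were low in the 5p arm and high in the 3p arm.

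At the later durations no miRNA of this locus passed in the fit of all arrays, but some did at 8 weeks under other settings. With no scaling miR-34b-3p (-1.07 log2, limma adjusted p 6.47e-04) and miR-34c-3p (-1.02, 0.00142) passed as falls. With the scaling value of the array as a covariate, an alternative added after the data were seen, these fell (-0.62, 0.00552, and -0.52, 0.0256) and miR-34b-5p rose (0.68, 0.0066). From 6 to 12 weeks the differences of miR-34b-5p were 0.29, 0.10 and 0.42 log2 and those of miR-34c-5p 0.18, -0.02 and 0.27, with adjusted p from 0.381 to 0.994 in limma. Those of miR-34b-3p were -0.08, -0.25 and -0.29 and those of miR-34c-3p 0.05, -0.20 and -0.11, with adjusted p from 0.399 to 0.933. At 8 weeks the smoke arrays spread on both sides of the room-air arrays: miR-34b-5p read -0.21, 0.79, 0.42 and -0.13 with smoke, against 0.04, 0.26, 0.10 and 0.09. At 12 weeks miR-34b-3p was lower on all smoke arrays (-4.13, -4.13 and -3.88) than on any room-air array (-3.82, -3.76, -3.76 and -3.69), as were 25.7% of the tested miRNAs, and its difference did not pass in the fit of all arrays. It passed when the arrays of 12 weeks were fitted alone (-0.29 log2, limma adjusted p 0.0288). A smoke effect differing between durations was not shown for these 4 miRNAs, with moderated F tests of adjusted p 0.0916 for miR-34b-5p, 0.0698 for miR-34c-5p, 0.306 for miR-34b-3p and 0.338 for miR-34c-3p (limma). These tests lie near the threshold for the 5p arms: with 1 array left out at a time miR-34c-5p passed in 6 of 31 fits (lowest adjusted p 0.0285) and miR-34b-5p in 2 of 31 (0.0462). With the covariate all 4 passed (9.21e-04 for miR-34b-5p, 0.00129 for miR-34c-5p, 0.0174 for miR-34b-3p and 0.0344 for miR-34c-3p), and with no scaling both 3p arms did (0.0159 and 0.0175).

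Both probes of a member gave the same call in each of the 5 smoke comparisons. In a fit of all 528 tested probes, of which 26.7% changed in the averaged comparison, the probes of miR-34a-5p rose by 0.77 and 0.67 log2 and those of miR-449a-5p by 0.72 and 0.67. None of the other 8 probes passed in that comparison, and their differences lay between -0.18 and 0.03 log2.

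A ratio of 2 members within an array does not depend on the scaling between arrays, and its differences between groups are given here without a test. The log2 ratio of miR-34a-5p to miR-34c-5p was between -0.46 and 0.09 on the 16 room-air arrays and between 0.22 and 1.03 on the 15 smoke arrays, with no overlap over the whole series. Of the 271 tested miRNAs other than miR-34c-5p, each taken as a ratio to it in the same way, 4 were higher on every smoke array than on any room-air array, or 1.48%: miR-34a-5p, miR-21-5p, miR-135b-5p and miR-146b-5p. By group the ratio was -0.28 ± 0.14, -0.10 ± 0.15, -0.05 ± 0.03 and 0.01 ± 0.07 in room air at 4, 6, 8 and 12 weeks (SD, n = 4 each). With smoke it was 0.93 ± 0.08, 0.67 ± 0.19 and 0.31 ± 0.08 at 4, 6 and 8 weeks (SD, n = 4 each) and 0.56 ± 0.07 at 12 weeks (SD, n = 3). The smoke arrays 2 and 3 of 4 weeks, which stood apart in the levels of both members, did not in their ratio (1.03 and 0.83, against 0.93 on arrays 1 and 4). The difference of the ratio was smallest at 8 weeks, at 0.36 log2, and largest at 4 weeks, at 1.21 log2. Taken to miR-34b-5p, the other 5p arm of the locus, the ratio of miR-34a-5p did overlap between smoke and room air. It was between -0.98 and -0.11 on the room-air arrays and between -0.44 and 0.99 on the smoke arrays. There 13 of 15 smoke arrays lay above all room-air arrays, and the difference was 1.38, 0.66, 0.25 and 0.41 log2 at 4, 6, 8 and 12 weeks.

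The ratio of miR-449a-5p to miR-34c-5p was higher with smoke on average too. It was between -3.72 and -2.46 on the room-air arrays and between -2.51 and -1.55 on the smoke arrays, and 14 of 15 smoke arrays lay above all room-air arrays. Its difference was 0.55, 0.68, 0.41 and 1.25 log2 at 4, 6, 8 and 12 weeks. So at 4 weeks, when the level of miR-449a-5p did not differ, it was higher relative to miR-34c-5p. The ratio of miR-34a-5p to miR-449a-5p changed its direction along the series: smoke minus room air was 0.66, 0.08, -0.05 and -0.69 log2 at 4, 6, 8 and 12 weeks, beside a pooled SD between arrays of a group of 0.15. The ratio of miR-34a-5p to miR-34b-3p was 0.76 log2 higher on average, with a pooled SD of 0.49, and 10 of 15 smoke arrays exceeded every room-air array.

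**Figure D3:**
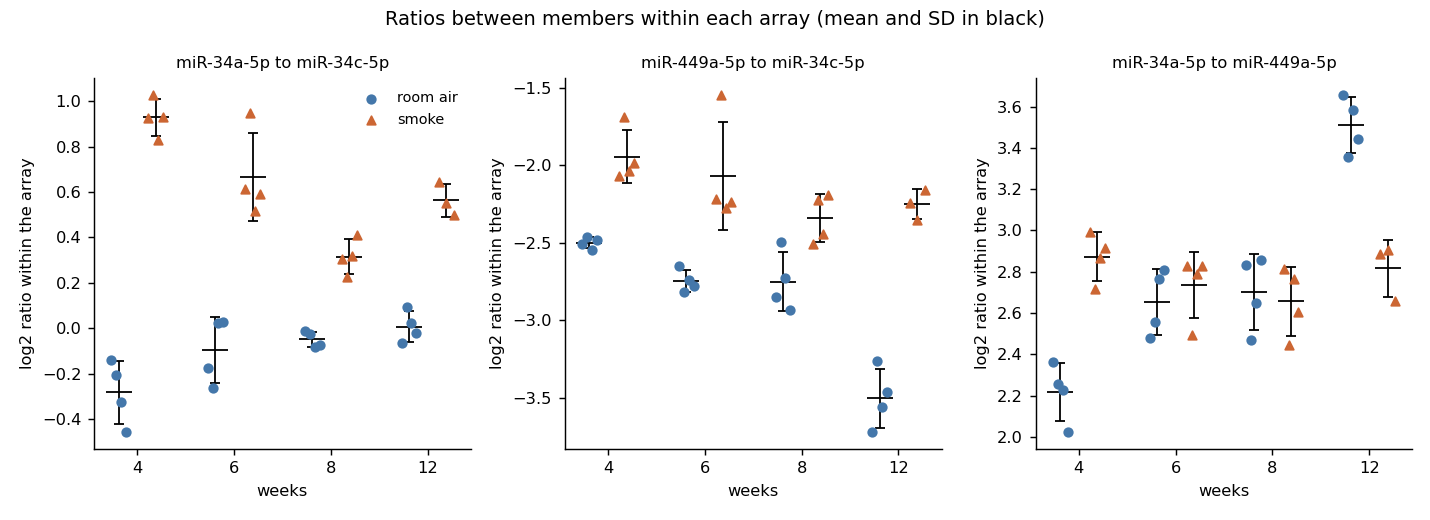
Log2 ratios between members within each array (vertical axis, own scale per panel) against weeks, room air as circles and smoke as triangles, with group mean and SD in black. The ratio of miR-34a-5p to miR-34c-5p separates all smoke from all room-air arrays, and that of miR-34a-5p to miR-449a-5p is higher with smoke at 4 weeks (difference 0.66) and lower at 12 weeks (-0.69).

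Between arrays of the same group the 5p arms moved together and the 3p arms moved opposite to them. Correlations were computed over the 31 arrays on deviations from the group means, for 15 pairs, with 100000 permutations. For the 6 pairs of 5p arms Pearson's r was 0.75 to 0.97 and Spearman's rho 0.69 to 0.94. Both 3p arms had r 0.98 and rho 0.95. For the 8 pairs of a 5p with a 3p arm r was -0.86 to -0.70 and rho -0.88 to -0.74. Every pair had a Benjamini-Hochberg adjusted permutation p of 2e-05 or less for r, the smallest unadjusted p that these permutations can give being 1e-05. Without the 2 arrays farthest from the median the ranges of r were 0.73 to 0.96, 0.97 and -0.84 to -0.66, and within single slides r kept its sign for all pairs (0.72 to 0.98 for 5p pairs, -0.99 to -0.48 for mixed pairs).

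The negative sign depends on the scaling between arrays. With no scaling the 8 mixed pairs had r 0.59 to 0.67, with quantile scaling -0.74 to -0.47, in the deposited series table -0.66 to -0.45, and after the normexp correction -0.50 to 0.71. The 5p pairs stayed positive in each (0.96 to 1.00 with no scaling, 0.18 to 0.95 with normexp). These correlations were not limited to the family: the median r of a member with the other tested miRNAs was -0.60 to -0.45 for the 4 members that are 5p arms, and 0.51 and 0.55 for the 3p arms. The points share the array and its brightness, and the members followed the scaling value of the array, an association looked for after the data were seen. Against log2 of that value r was 0.71 for miR-34a-5p, 0.80 for miR-34b-5p, 0.72 for miR-34c-5p and 0.77 for miR-449a-5p, and -0.69 for miR-34b-3p and -0.60 for miR-34c-3p (rho 0.70, 0.81, 0.70, 0.80, -0.80 and -0.70, in the same order; permutation test, adjusted p at most 4.7e-04 for r and 2e-05 for rho over the 6). Without the 2 arrays farthest in scaling value r was 0.61 to 0.73 for the 5p arms and -0.70 and -0.64 for the 3p arms, and it had the same sign within each slide.

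**Figure D4:**
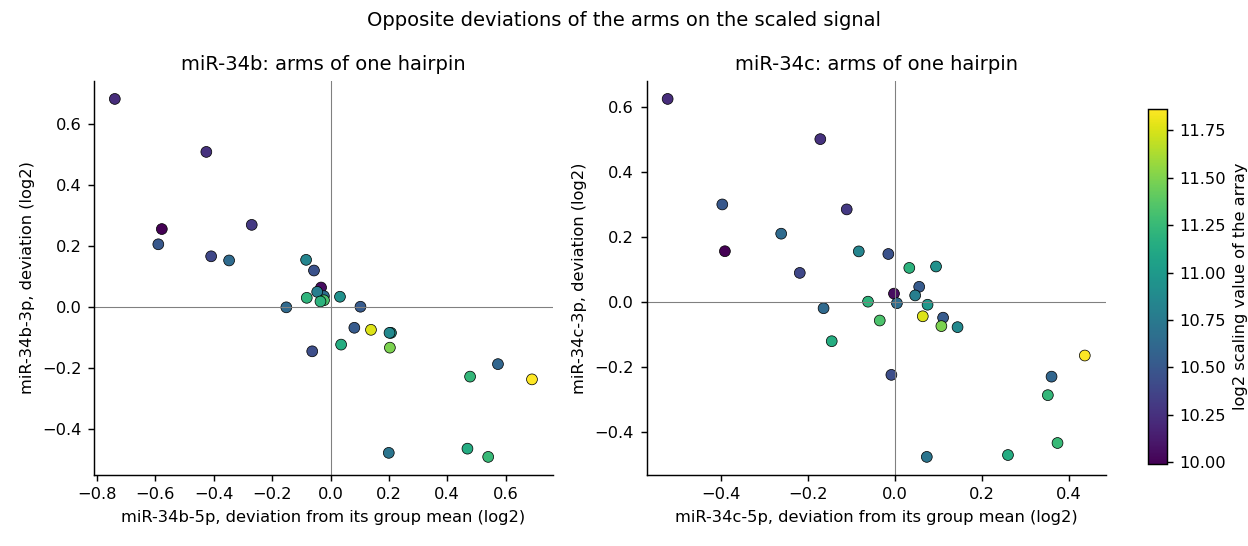
Deviation of the 3p arm from its group mean (vertical axis, log2) against that of the 5p arm (horizontal axis, log2) for miR-34b and miR-34c, 1 point per array, coloured by the log2 scaling value of the array. Points run from upper left to lower right (r between -0.86 and -0.70 over the mixed pairs), with the arrays of lowest scaling value mostly at the upper left.

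The scaling value moved with some of the group differences above. At 4 weeks smoke arrays 2 and 3 had values of 1201 and 1259, against 2441 and 2249 on arrays 1 and 4 and 1377 to 2875 in room air. At 6 weeks room-air arrays 3 and 4 had 1446 and 1018, against 2398 and 3725 on arrays 1 and 2. At 8 weeks every smoke array (1229 to 1681) was below every room-air array (2337 to 3472), and at 12 weeks the values were 1341 to 2029 with smoke and 1062 to 1579 in room air. With log2 of this value as a covariate the averaged differences were 0.72 log2 for miR-34a-5p and 0.74 for miR-449a-5p. At 8 weeks the differences became 0.63 (limma adjusted p 4.26e-04) and 0.77 log2 (1.97e-04), both then past the test, as were the 3 miRNAs of the miR-34b and miR-34c locus named above for 8 weeks (miR-34c-5p, at 0.32 log2, was not, limma adjusted p 0.0745). Since the scaling values of the 2 groups do not overlap at 8 weeks, exposure and array brightness cannot be told apart in these covariate values. At 12 weeks miR-449a-5p was at 1.37 log2 (limma adjusted p 2.24e-08), and its durations among room-air arrays still differed (span 0.99 log2, limma adjusted p 6.18e-05).

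Of 9 other miRNAs linked to p53 that were listed, 8 were tested, and 2 rose and none fell in the averaged comparison (median 0.05 log2, all tested miRNAs -0.005), where 27.6% of all tested miRNAs changed. These were miR-194-5p (0.23 ± 0.08 log2, limma adjusted p 0.0245) and miR-192-5p (0.28 ± 0.10, limma adjusted p 0.0441), miRNAs of epithelia that p53 induces. miR-145-5p (-0.13 log2, limma adjusted p 0.335) and miR-103-3p (0.06, 0.41) did not pass. By duration 2, 0, 0 and 1 of the 8 rose at 4, 6, 8 and 12 weeks and none fell, beside 38.2%, 8.09%, 11% and 9.56% of all tested miRNAs changed in either direction. The 1 at 12 weeks was miR-192-5p (0.73 ± 0.22 log2, limma adjusted p 0.0346), which read -3.46, -3.42, -3.48 and -3.44 on the room-air arrays and -3.29, -3.28 and -1.60 on the smoke arrays. Smoke array 3 stood apart, and it alone of the arrays of 12 weeks detected the liver miRNA miR-122-5p (1.57 log2, against the floor of -6.74 on the other arrays of 12 weeks). Without this array the rise of miR-192-5p at 12 weeks was 0.17 log2 (limma adjusted p 0.12), and the averaged differences were 0.14 log2 for miR-192-5p (0.00111) and 0.14 for miR-194-5p (0.0126), both still past the test. The members kept their calls without it, at 12 weeks 0.97 log2 for miR-34a-5p (limma adjusted p 5.72e-04) and 1.58 for miR-449a-5p (2.23e-05).

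Of the 9 epithelial miRNAs listed, all tested, 3 rose and none fell in the averaged comparison (median 0.14 log2), where 27.6% of all tested miRNAs changed. These were miR-429-3p of the miR-200 family (0.27 ± 0.04 log2, limma adjusted p 1.48e-06), miR-183-5p (0.39 ± 0.06, 6.66e-06) and miR-182-5p (0.35 ± 0.06, 1.72e-04), while miR-200c-3p, which maintains the epithelial state, was at 0.22 ± 0.09 (limma adjusted p 0.0645). By duration 5, 2, 0 and 1 of the 9 rose, beside 38.2%, 8.09%, 11% and 9.56% of all tested miRNAs changed in either direction. The list did not move as one at 4 weeks. There miR-141-3p (-0.93 log2, limma adjusted p 0.0513), miR-200a-3p (-0.28, 0.091) and miR-96-5p (-0.12, 0.592) were lower with smoke, without passing. Averaged, miR-141-3p was at -0.08 and miR-200a-3p at -0.005 log2. The summed scaled signal of the list was 6.22 to 6.93 in room air and 7.13 to 8.85 with smoke at 4 weeks, 6.73 to 7.19 and 7.56 to 7.94 at 6 weeks, 7.31 to 7.59 and 6.58 to 7.68 at 8 weeks, and 7.27 to 7.74 and 7.88 to 8.01 at 12 weeks. The sums did not overlap between the groups at 4, 6 and 12 weeks and overlapped at 8 weeks. The levels of miR-34a-5p did not overlap at any duration, and its rise passed the test at 4, 6 and 12 weeks. Of the single tested miRNAs 23.5%, 15.8% and 16.5% were higher on every smoke array than on any room-air array at 4, 6 and 12 weeks. The part of the epithelial miRNAs in the rise of miR-34a-5p was not tested.

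Markers of other tissues moved at 4 weeks beside the falls of miR-34b-5p and miR-34c-5p, when 38.2% of all tested miRNAs changed. Both squamous epithelial miRNAs fell (miR-203-3p -0.72 and miR-205-5p -1.40 log2, limma adjusted p 0.0259 and 0.0261), with summed signals of 0.14 to 0.48 in room air and 0.13 to 0.18 with smoke. Of 3 tested striated muscle miRNAs 2 fell (miR-133a-3p -0.93 and miR-133b-3p -0.98 log2, limma adjusted p 0.0467 and 0.044), with sums of 1.80 to 6.66 and 1.63 to 1.85. Of 5 leukocyte miRNAs miR-142-5p and miR-142-3p fell (-1.06 and -1.28 log2, limma adjusted p 0.00502 and 0.0082) and miR-155-5p and miR-223-3p rose (0.86 and 0.76, 0.00595 and 0.0379), with sums of 8.97 to 9.29 and 5.11 to 8.38. Of the 2 erythroid miRNAs tested 1 fell, miR-144-3p (-1.31 log2, limma adjusted p 0.049), the liver miRNA miR-122-5p did not pass (0.84 log2, limma adjusted p 0.519), and neither endothelial miRNA did. Without smoke arrays 2 and 3 the miRNAs changed at 4 weeks numbered 15, against 104 with them. The part of these cell types in the falls was not tested. Without the 3 arrays highest in muscle miRNAs (at 4 weeks room-air arrays 1 and 4, at 8 weeks smoke array 3) the differences at 4 weeks were -0.74 log2 for miR-34b-5p, -0.59 for miR-34c-5p and 0.60 for miR-34a-5p, of which none passed (limma adjusted p 0.17, 0.114 and 0.0626). None of the 5 leukocyte miRNAs and 1 of the 2 endothelial miRNAs, miR-126-3p (lower), passed at 12 weeks, where the rise of miR-449a-5p was greatest and 9.56% of all tested miRNAs changed. Beside the epithelial sum given above (7.27 to 7.74 in room air and 7.88 to 8.01 with smoke), the summed signals of 3 more marker lists did not overlap between the groups of 12 weeks. The leukocyte sum was 8.74 to 10.2 in room air and 6.05 to 7.59 with smoke, the endothelial sum 33.6 to 35.3 and 28.4 to 30.8, and the erythroid sum 61.9 to 67.3 and 72.0 to 76.5. Of the single tested miRNAs 16.5% were higher and 25.7% lower on every smoke array than on any room-air array of 12 weeks. At 12 weeks the liver miRNA was at the floor except on smoke array 3. The part of these cell types in the rise of miR-449a-5p was not tested.

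The profiles of the members over the 8 group means resembled other miRNAs in pairs. Among the 3 nearest, miR-34a-5p and miR-449a-5p shared miR-146a-5p and miR-31-3p. Likewise miR-34b-5p and miR-34c-5p shared miR-141-3p and miR-19a-3p, and both 3p arms shared miR-214-3p. Likeness was measured as the root mean square difference of the profiles, each centred on its own mean. For miR-34a-5p, whose group means spanned 1.09 log2, the nearest were miR-672-5p (0.15 log2), miR-146a-5p (0.15), a miRNA of NF-kB signalling, and miR-31-3p (0.19). For miR-449a-5p, with a span of 1.52 log2, they were miR-551b-3p (0.25), miR-31-3p (0.34) and miR-146a-5p (0.36), all farther from it than the nearest miRNAs of the other members from theirs. miR-34b-5p was nearest to miR-141-3p of the miR-200 family (0.06 log2), miR-324-5p (0.12) and miR-19a-3p (0.15), and miR-34c-5p to miR-19a-3p (0.10), miR-141-3p (0.10) and miR-101b-3p (0.11). miR-34b-3p was nearest to miR-30b-5p (0.07), miR-200b-5p (0.09) and miR-214-3p (0.09), and miR-34c-3p to miR-212-3p (0.08), miR-29a-3p (0.09) and miR-214-3p (0.10). No miRNA was among the 3 nearest to both arms of a hairpin.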

How the data were processed

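Each deposited scanner file gives the 1-colour intensity of the spots of an array, from which Feature Extraction 10.7.3.1 had removed background and spatial trend, per the file headers. No scaling between arrays had been applied to it. An alternative used the log2 values of the deposited table of the whole series, which the authors had normalized in a way that the sources used here do not give.

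Control spots and outlier spots (297 to 655 of 13000 per array) were left out and the spots of a probe averaged. Detection of a probe required 50% of its spots on the array to be well above background. Signals were divided by the 75th percentile of the 385 probes detected on all arrays, floored at log2 -6.74 (the median over arrays of the lowest detected signal) and log2-transformed. The brightest probe stood for a miRNA, and entered the tests when 75% of the arrays of any group detected it (272, of which 2 lay at the floor on every array). limma 3.58.1 in R 4.3.3 fitted 1 mean per group over 31 arrays, with 23 residual degrees of freedom, after the code was tested on simulated data. The number of arrays limits the precision.

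The members and lists were chosen with earlier results of these data known. Named miRNAs are the members, those sharing a seed with them, up to 4 per list with the lowest p in the averaged comparison, and the 3 nearest profiles per member; marker miRNAs of 4 weeks were named after their values were seen. The normexp alternative used median spot and background signals, since the files have no mean signal. Other alternatives were other scalings, probes, floors and filters, slide or replicate number as a block, and arrays left out.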

Additional observations from a re-analysis of the deposited data

Results flagged for a closer look

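The effect of smoke on miR-449a-5p differed between the durations by a test of the difference itself (limma moderated F test, adjusted p 0.00641), from -0.09 log2 at 4 weeks to 1.52 log2 at 12 weeks. It did not pass with normexp (limma adjusted p 0.198) or scaled by the 75th percentile of all probes (0.0502). In 42 groups of 4 arrays (6 members in 7 groups), 4 single arrays stood far from the other arrays of their group, where chance gives about 1 in 20 groups. These were miR-34b-5p on room-air array 4 of 4 weeks (0.52 log2), miR-34b-3p on smoke array 2 of 6 weeks (-4.09 log2) and on room-air array 2 of 8 weeks (-3.94 log2), and miR-449a-5p on smoke array 2 of 6 weeks (-1.94 log2). Without smoke array 2 the rise of miR-449a-5p at 6 weeks was 0.74 log2 (limma adjusted p 0.0181).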

How the results depend on the processing

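The 48 values of members (6 members, 8 comparisons) were recomputed under every alternative, which gave 2232 values. Of these 2095 kept their direction and their side of the threshold, 33 were no longer past it, 48 were newly past it and 56 changed sign, 23 of them with 1 array left out. In 0 of these 56 did the value pass the test in either fit. The replicate numbers were not taken to pair samples, since deviations from the group means correlated above 0.1 in 7 of 15 same-numbered smoke and room-air pairs (r -0.21 to 0.41). With a replicate block, and with the slide as a block, 0 of the 48 calls changed: miR-449a-5p among room-air durations, for example, had a span of 1.16 log2 with the replicate block (limma adjusted p 0.00184). The block left 89, 22, 28 and 22 miRNAs called at 4, 6, 8 and 12 weeks and 71 averaged, against 104, 22, 30, 26 and 75 without it.

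The averaged rise of miR-34a-5p did not pass with no scaling (0.52 log2, limma adjusted p 0.113), nor did that of miR-449a-5p with no scaling (0.52, 0.142) or normexp (0.38, 0.198). miR-34b-3p passed without smoke arrays 2 and 3 of 4 weeks (-0.20 log2, 0.0428). With 1 array left out at a time the averaged differences were 0.64 to 0.71 log2 for miR-34a-5p and 0.63 to 0.71 for miR-449a-5p.

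The values that changed sign came from 17 of the 48. At 4 weeks miR-34b-3p was at -0.73 log2 with normexp and -0.21 without smoke arrays 2 and 3, miR-34c-3p at -0.63 and -0.12, and miR-449a-5p at 0.15 without those arrays. At 6 weeks miR-34c-5p was at -0.011 with the scanner's sum, and miR-34c-3p at -0.050 with quantile scaling, -0.11 with the scanner's sum and -0.027 in the deposited table. At 8 weeks no scaling gave -0.48 for miR-34a-5p, -0.72 for miR-34b-5p and -0.43 for miR-449a-5p, normexp gave 0.070 for miR-34b-3p and 0.073 for miR-34c-3p, and miR-34c-5p was at 0.0029 scaled by all probes and 0.32 with the scaling value as a covariate. At 12 weeks miR-34b-3p was at 0.032 with no scaling, and miR-34c-3p at 0.034 scaled by all probes, 0.21 with no scaling and 0.014 with the covariate. Averaged, miR-34b-5p was at 0.019 scaled by all probes, 0.0021 with normexp, 0.12 without those 2 arrays and 0.10 with the covariate, and miR-34c-5p at 0.027 and 0.0092 in the last 2. Averaged, miR-34c-3p was at -0.026 with quantile scaling, -0.13 with no scaling, -0.067 with the scanner's sum, -0.17 with normexp, -0.033 in the deposited table, -0.094 without those arrays and -0.037 with the covariate. With 1 array left out at a time the ranges were -0.17 to 0.0029 for miR-449a-5p at 4 weeks, -0.15 to 0.010 for miR-34b-3p and -0.042 to 0.15 for miR-34c-3p at 6 weeks, -0.096 to 0.24 for miR-34b-5p and -0.14 to 0.065 for miR-34c-5p at 8 weeks, and -0.053 to 0.058 for miR-34b-5p and -0.033 to 0.059 for miR-34c-3p averaged.

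Counts of called miRNAs moved more. At 4 weeks (104) they were 60 scaled by all probes, 4 with no scaling, 46 with normexp, 63 with a floor 4 times higher, 55 with no detection filter, 15 without smoke arrays 2 and 3 of 4 weeks, 18 without the 3 arrays high in muscle miRNAs and 18 from the arrays of 4 weeks alone. At 6 weeks (22) they were 2 with no scaling, 4 with normexp, 13 with the higher floor and 44 with the scaling value as a covariate, an alternative added after seeing the data. At 8 weeks (30) they were 203 with no scaling, 60 with the scanner's sum per miRNA, 3 with normexp, 18 with the higher floor, 52 in the deposited series table and 121 with the covariate. At 12 weeks (26) they were 45 with quantile scaling, 5 with no scaling, 4 with normexp, 15 with the higher floor, 417 with no detection filter, 46 in the deposited table, 46 without smoke arrays 2 and 3 of 4 weeks, 42 with the covariate and 94 from the arrays of 12 weeks alone. Averaged (75) they were 29 with no scaling, 12 with normexp and 45 with the higher floor. For the smoke effect differing between durations (19) they were 133 with no scaling, 0 with normexp (limma; 37 at an unadjusted p under 0.05), 10 with the higher floor, 12 with no filter, 37 in the deposited table, 9 without the muscle-high arrays and 166 with the covariate. Among room-air durations (19) they were 84 scaled by all probes, 151 with no scaling, 4 with normexp, 11 with the higher floor, 11 with no filter, 12 for miRNAs detected on every array, 35 in the deposited table, 66 without smoke arrays 2 and 3 of 4 weeks and 130 with the covariate. Among smoke durations (8), a comparison added after seeing the data, they were 3 scaled by all probes, 18 with quantile scaling, 0 with no scaling and 0 with normexp (limma; 18 and 5 at an unadjusted p under 0.05), 2 with the scanner's sum, 399 with no filter, 4 for miRNAs detected on every array, 19 in the deposited table, 5 without the muscle-high arrays and 96 with the covariate. The 417 and 399 with no filter exceed the 272 detected miRNAs, so they include miRNAs that were not detected in any group. At 12 weeks the median difference in that fit was -1.776e-15 log2, a rounding error of values at the floor. These 2 counts therefore do not measure changed miRNAs.

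With 1 array left out at a time the counts were 36 to 149, 15 to 32, 22 to 41 and 18 to 39 at 4, 6, 8 and 12 weeks, 70 to 90 averaged, 10 to 66 for the effect differing between durations, 7 to 43 among room-air and 4 to 43 among smoke durations. At 4 weeks the count fell to 42 without room-air array 4, 39 without smoke array 2 and 36 without smoke array 3.

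With no scaling r turned positive in the 8 mixed pairs of arms: miR-34b-3p had 0.617 with miR-34a-5p, 0.585 with miR-34b-5p, 0.623 with miR-34c-5p and 0.670 with miR-449a-5p, and miR-34c-3p had 0.631, 0.596, 0.635 and 0.666. With normexp r was 0.708 for miR-449a-5p with miR-34b-3p and 0.703 with miR-34c-3p. No scaling shifted the median of all tested miRNAs to -0.86 log2 at 8 weeks and normexp to -0.75 at 4 weeks. Beyond these shifts the cause of the changed values was not tested.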
